A study of Mus musculus with 4 samples.

Results

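The 163 genes described here lie on mouse chromosome 14 within 10 Mb of Ndrg2, among 15776 genes tested on the same arrays. They were chosen by position and detectable signal, with some genes left out by name. A gene belonged if the transcript accession of an array probe mapped to chromosome 14, its start lay within 10 Mb of the start of Ndrg2, and 1 of the dye channels was well above background at that probe on each of the 4 arrays. Genes named Rnase, Ang, Pnp and Samd4 were left out. Of 253 such genes with a probe, 163 passed the background filter, through 210 of 315 probes, and 90 did not.

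Cortical RNA from male mice, 3 months old, was compared. Samples labelled Ndrg2-/- carried the red dye Cy5 and were set against samples labelled wild type, which carried the green dye Cy3. The labels give a C57BL/6N background, and 4 two-colour Agilent arrays held 1 sample of each genotype apiece, numbered as replicates 1 to 4. No other allele, transgene or treatment is named, and the deleted portion of Ndrg2, the kinship of knockout and control mice, and any pooling of animals are not stated in the labels. The p-values therefore measure only the spread between these samples, which may be technical.

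Neighbouring genes on a chromosome are usually inherited together. A line made by gene targeting therefore carries, around its altered gene, the flanking DNA of the cells in which the alteration was made, for as far as breeding has not exchanged it. Ndrg2 itself encodes an N-myc downstream regulated protein that is made mainly by astrocytes in the brain. Its stretch of chromosome 14 is rich in gene families: ribonucleases, olfactory receptors, the T cell receptor alpha and delta segments, cardiac myosins, and a cluster of mast cell and cytotoxic proteases, set among widely expressed genes for chromatin, RNA and protein turnover.

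The gene families of the window differed in how many members were above background in cortex. Of 37 olfactory receptor genes with a probe, 2 passed the background filter. Of 16 genes whose names mark them as mast cell or cytotoxic proteases, 2 passed, Cma2 and Ctsg. Of 4 eosinophil-associated ribonuclease genes 3 passed, and among the families left out by name 10 genes passed and were not described. All other results concern genes with detectable signal, 46 proximal and 116 distal of Ndrg2. No tested gene started between 0.41 and 2.33 Mb on the distal side, the stretch that holds the T cell receptor segments. Most members were protein-coding (157 of 163).

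The promoter windows of 6 start regions are printed because the members with large or paired differences start there. Each window runs from 250 bases before to 50 bases after a transcript start in RefSeq GRCm38.p6, is written 5′ to 3′ on the strand of its gene, and shows in capitals matches on either strand to the motifs searched for. The GC box was spelled GGGCGG and the CCAAT box by the letters CCAAT. The TATA box was spelled TATAAA, and the E-box CACGTG. The Abhd4 window is chr14:54253879-54254178 on the plus strand. It also holds the start of Dad1, which is read from the other strand, 200 bases away.
Abhd4 and Dad1: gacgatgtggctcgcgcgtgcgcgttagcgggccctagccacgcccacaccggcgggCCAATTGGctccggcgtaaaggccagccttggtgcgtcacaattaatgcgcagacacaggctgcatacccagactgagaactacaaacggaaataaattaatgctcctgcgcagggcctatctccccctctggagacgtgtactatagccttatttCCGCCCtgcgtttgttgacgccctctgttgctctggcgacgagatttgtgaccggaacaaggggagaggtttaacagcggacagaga
The Ap5m1 window is chr14:49066299-49066598 on the plus strand, and the Exoc5 window is chr14:49066618-49066917 on the minus strand. The 2 transcripts overlap by 119 bases at their starts.
Ap5m1: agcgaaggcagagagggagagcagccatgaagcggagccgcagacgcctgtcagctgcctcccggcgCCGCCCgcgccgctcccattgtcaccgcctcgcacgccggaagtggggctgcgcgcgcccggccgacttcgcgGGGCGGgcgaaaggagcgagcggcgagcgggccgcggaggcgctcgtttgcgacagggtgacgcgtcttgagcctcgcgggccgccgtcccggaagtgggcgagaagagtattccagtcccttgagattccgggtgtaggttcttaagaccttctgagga
Exoc5: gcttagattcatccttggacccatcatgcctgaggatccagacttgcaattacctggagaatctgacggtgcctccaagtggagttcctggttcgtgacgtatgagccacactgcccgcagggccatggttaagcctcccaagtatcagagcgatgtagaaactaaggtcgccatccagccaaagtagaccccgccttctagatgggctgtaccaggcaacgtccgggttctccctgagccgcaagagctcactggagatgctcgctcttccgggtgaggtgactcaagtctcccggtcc
The other windows, all on the minus strand, are chr14:52197190-52197489 for Supt16, chr14:54781837-54782136 for Slc7a8 and chr14:54994577-54994876 for the outermost start of Myh7.
Supt16: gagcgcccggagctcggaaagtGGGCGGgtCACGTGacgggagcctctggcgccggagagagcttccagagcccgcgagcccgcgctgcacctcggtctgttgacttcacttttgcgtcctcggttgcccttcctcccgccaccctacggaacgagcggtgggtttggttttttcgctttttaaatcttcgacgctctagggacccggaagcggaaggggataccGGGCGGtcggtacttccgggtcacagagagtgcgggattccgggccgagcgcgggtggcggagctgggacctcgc
Slc7a8: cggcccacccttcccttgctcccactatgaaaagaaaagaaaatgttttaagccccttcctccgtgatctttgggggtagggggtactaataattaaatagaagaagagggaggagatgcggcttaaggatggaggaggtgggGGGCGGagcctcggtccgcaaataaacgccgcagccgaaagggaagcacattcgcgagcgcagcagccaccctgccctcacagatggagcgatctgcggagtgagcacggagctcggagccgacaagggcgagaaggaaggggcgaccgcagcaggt
Myh7: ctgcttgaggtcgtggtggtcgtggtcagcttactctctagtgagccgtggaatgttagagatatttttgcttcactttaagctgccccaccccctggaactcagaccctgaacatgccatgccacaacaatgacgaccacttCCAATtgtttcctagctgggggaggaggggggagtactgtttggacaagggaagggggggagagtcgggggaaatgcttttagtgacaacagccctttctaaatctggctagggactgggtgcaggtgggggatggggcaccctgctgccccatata
The run CCAATTGG between Abhd4 and Dad1 counts as a CCAAT box on each strand, and these matches overlap. The Supt16 window holds 2 GC boxes and an E-box, and the Myh7 window holds a CCAAT box and no GC box.

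A promoter window was found for 149 of the 163 members. A GC box occurred in 48.6% of the 181 windows of members, against 35.7% of 32851 windows of all genes, and a CCAAT box in 34.3% against 37.4%. The letters TATAAA occurred in 9.94% against 13.6%, and CACGTG in 8.29% against 7.15%. Windows of members had a median GC content of 58.3%, against 52.7% in all windows, and a median of 17 against 7 CpG dinucleotides. The sets are unlike, since members had passed the background filter in cortex and the windows of all genes were not filtered. Whether these differences belong to the position or to the filter was not tested. A match is a run of letters and was not tested as a binding site.

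Across the arrays, 70.7% to 73.5% of probes were well above background in red and 70.8% to 72.7% in green, and no spot was saturated. Median spot signals were 283 to 336 in red and 94 to 122 in green, and median local backgrounds were 87 to 96 and 22 to 26. Where a gene had several probes, the one brightest on average stood for it. Each ratio is the log2 of the sample labelled knockout over the sample labelled wild type on 1 array, and means are given with the SD over the 4 arrays (n = 4). A gene was called when its adjusted p from limma, taken over all tested probes with the Benjamini-Hochberg method, was under 0.05, and only called genes are said to have risen or fallen. No array had the dyes exchanged, so genotype and dye cannot be told apart at any probe.

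Ndrg2, the gene labelled as deleted, was read by 1 tested probe (NM_013864). Its log2 signal was 15.09, 15.06, 15.26 and 15.34 in the samples labelled knockout, against 14.98, 14.69, 14.85 and 14.95 in those labelled wild type. The samples labelled knockout were higher on every array, by log2 ratios of 0.11, 0.37, 0.40 and 0.38. The mean was 0.32 ± 0.14, with a limma adjusted p of 0.0173 and an exact two-sided sign-flip p of 0.125, the smallest that 4 arrays allow. The probe goes against the labels, and since the deleted part is not given, whether it lies inside that part was not tested; the samples are therefore named as labelled throughout. In the settings that follow, the size of the difference held while the call did not. Leaving out replicate 2 gave a mean ratio of 0.30 (adjusted p 0.0796), and leaving out replicate 3 gave 0.29 (adjusted p 0.0653). Processed signals gave 0.26 (adjusted p 0.0662), and the fit with no replicate block gave 0.32 (adjusted p 0.0602). Under median centring the size did not hold. The mean ratio was 0.85 there, in a setting that also raised the median of all genes.

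The 5 tested genes nearest on each side had values of both signs. On the proximal side Mettl17, a protein of mitochondrial ribosome assembly only 0.02 Mb away, fell, with log2 ratios of -0.42, -0.20, -0.08 and -0.18 (adjusted p 0.0468). That call was lost without each replicate in turn (adjusted p 0.068 to 0.135), on processed signals (0.0617), with no filter on dim probes (0.0511) and with no replicate block (0.0947), and the mean ratio was -0.03 under median centring. On the distal side Arhgef40 had ratios of 0.23, 0.19, 0.19 and 0.21. Rpgrip1, a protein of the photoreceptor cilium 0.20 Mb away, had 0.26, 0.23, 0.25 and 0.16. On these brightest probes both were called, with adjusted p of 0.0173 and 0.016. The other 7 neighbours, Slc39a2, Ear6, Gm5800, Gm5622, Zfp219, Tmem253 and Hnrnpc, had mean ratios between -0.04 and 0.09 and were not called. Ear6 belongs to the eosinophil-associated ribonucleases, which were kept because the rule leaves out genes by name.

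Over the whole window, 49 of 163 genes were called (30.1%), where 14.9% of all tested genes were. Of these, 29 rose (9.11% of all genes did) and 20 fell (5.83% of all genes did). Centring each array on its median without loess gave 106 higher and 31 lower, but that setting also moved the median of all genes to 0.28 and called 82.3% of them. The count depended on single libraries: it was 25 without replicate 1, 15 without replicate 2 and 22 without replicate 3, where 4.05%, 2.87% and 5.08% of all genes were called. Treating the channels as separate samples, with no replicate block, called 25 members and 4.25% of all genes. The 15 genes that stayed called with each replicate left out in turn were Supt16, Slc7a8, Myh7, Zfhx2os, Peli2, Abhd4, Ppp1r3e, Bmp4, Gjb2, Haus4, Cgrrf1, Dad1, Ap5m1, Slc7a7 and Exoc5, and each of the other called members lost its call without at least 1 replicate. Ppp1r3e is a case apart, since it passed the background filter only through the channel in which it is higher. The calls of 10 members were lost without each replicate in turn: Mettl17, Nfatc4, Tnfrsf19, Atg14, 4931414P19Rik, Bcl2l2, Pabpn1, Tm9sf1, Cdadc1 and Spata13. Of the 49 called members, 37 were also called on the scanner software's processed signals and 25 with no replicate block, and all 49 kept their sign in both.

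The differences were small for most members. The median absolute log2 ratio was 0.10 over the members and 0.08 over all genes, and the median signed ratio was 0.03 over the members and 0.01 over all genes. A mean ratio beyond 0.3 in either direction was seen in 19 members (11.7%), against 4.04% of all genes. A single sign on all 4 arrays was seen in 87 members (53.4%), against 42.7% of all genes. Past 1.5 fold on all 4 arrays were 4 members, of 15 such genes among all tested (0.0951%).

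Signal strength differs between genes and bears on which pass the test. All genes were split into 3 equal classes by mean intensity. In the dimmest class 10 of 57 members were called (17.5%), against 8.52% of all genes in it. In the middle class 22 of 56 were called (39.3%, against 16.1%), and in the brightest 17 of 50 (34.0%, against 20.2%). The members' share was above that of all genes in each class, and these differences were not tested.

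**Figure D1:**
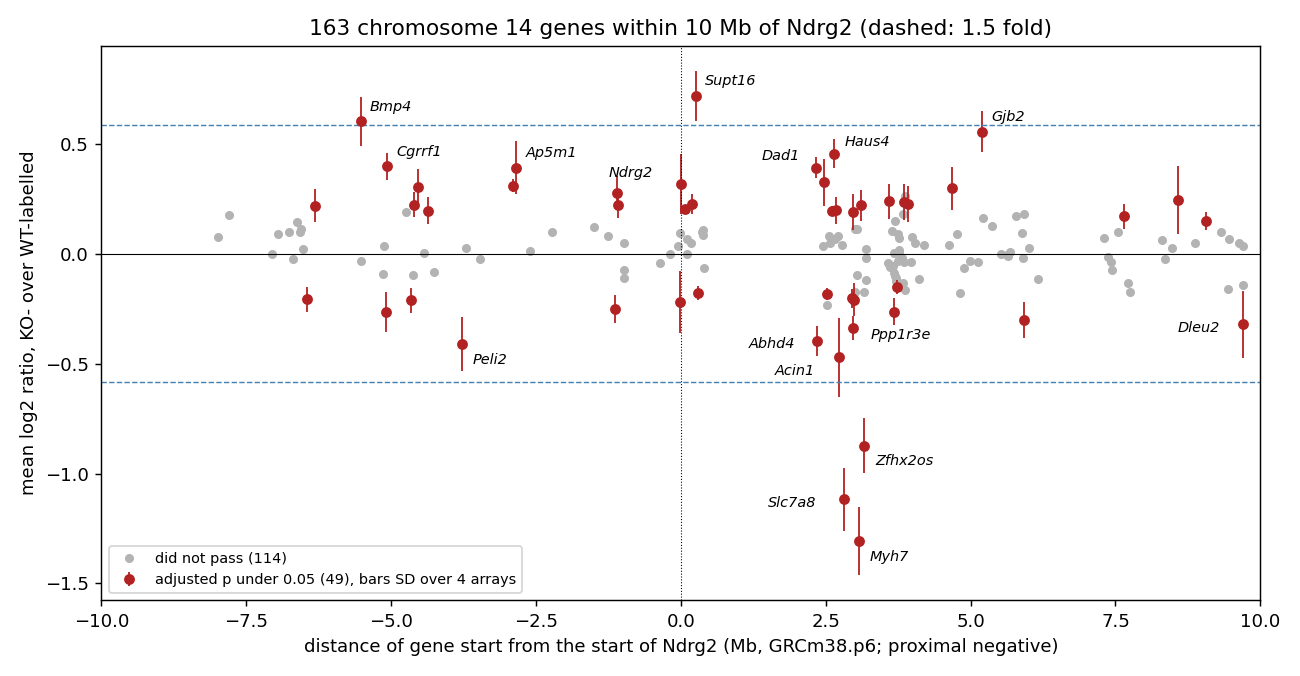
Mean log2 ratio of each of the 163 members, samples labelled knockout over samples labelled wild type (vertical axis), by distance of the gene start from Ndrg2 in Mb (horizontal axis), with bars for the SD over 4 arrays on called members and dashed lines at 1.5 fold. Called members, 29 higher and 20 lower, lie on both sides of Ndrg2 and of zero, and Myh7, Slc7a8 and Zfhx2os lie together near 3 Mb on the distal side.

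By position, 16 of 46 proximal members were called (34.8%; 10 higher and 6 lower) and 32 of 116 distal members (27.6%; 18 higher and 14 lower). Within 5 Mb of Ndrg2 38 of 109 were called (34.9%), and between 5 and 10 Mb 11 of 54 (20.4%). On the remainder of chromosome 14, 75 of 370 genes were called (20.3%). All 4 members past 1.5 fold lay within 5 Mb, on the distal side. Such differences were not confined to the window. On the remainder of chromosome 14, 4 of 370 genes passed 1.5 fold on all arrays (1.08%), against 0.0951% of all tested genes.

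In steps of 2.5 Mb from the proximal end, the called counts were 0 of 2, 5 of 16, 7 of 14 and 4 of 14 up to Ndrg2, then 7 of 15, 19 of 65, 2 of 19 and 4 of 17 beyond it. The step from 5 to 7.5 Mb on the distal side was lowest among those with over 10 genes, at 10.5%, below the background of 14.9%. The densest run, bounded after its values were seen and therefore without a test, lay from 2.3 to 3.3 Mb on the distal side, from Dad1 to just past Zfhx2os. There 16 of 31 genes were called, 7 higher and 9 lower, and 3 of the 4 members past 1.5 fold are among them. In the next run, from 3.5 to 4.2 Mb, 5 of 32 were called (15.6%), near the background.

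**Figure D2:**
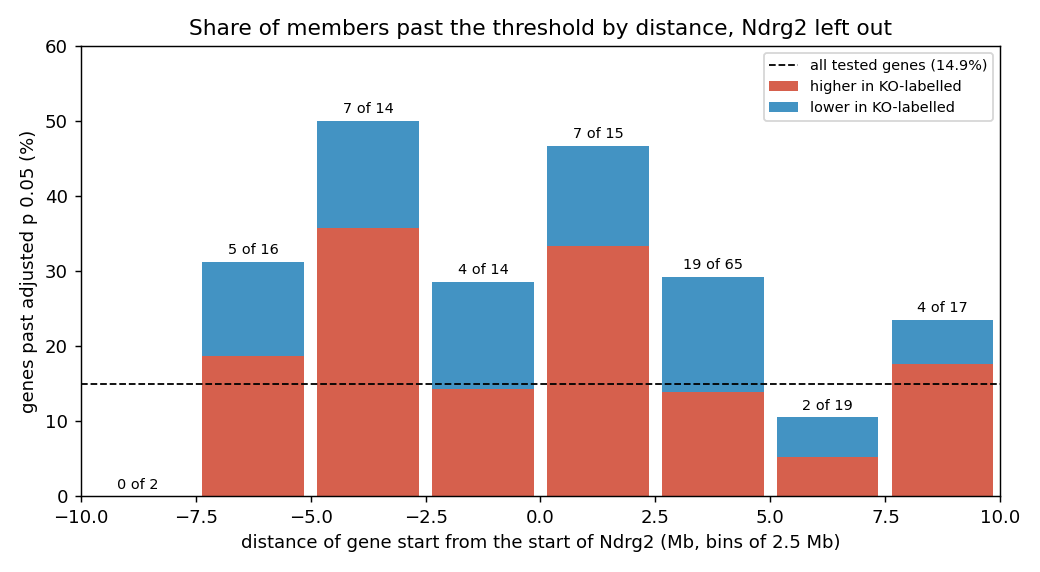
Share of members called, in percent (vertical axis), split by direction of the ratio, in each 2.5 Mb step of distance from Ndrg2 (horizontal axis), with Ndrg2 left out and the share of all tested genes as a dashed line. The share called was 46.7% in the step that starts at Ndrg2 and 10.5% in the step from 5 to 7.5 Mb.

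Signs were also compared along the chromosome. Of 162 neighbouring pairs along the chromosome, 80 had ratios of 1 sign (49.4%), against 50.6% of neighbouring pairs over all genes. From each called member to the next called one, 20 of 48 steps kept the sign (41.7%), against 52.4% over all genes.

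The largest difference was that of Myh7, a slow myosin heavy chain of heart and skeletal muscle, 3.07 Mb from Ndrg2. Its log2 signal was 11.03, 10.90, 10.90 and 10.81 in the samples labelled knockout, against 12.12, 12.21, 12.29 and 12.26 in those labelled wild type. The groups were apart by more than 1 log2 unit on every array, and the mean ratio was -1.31 ± 0.16 (2.47 fold lower, adjusted p 0.000234). Its neighbour Myh6, the other cardiac myosin heavy chain, had ratios between -0.22 and 0.01 and was not called (adjusted p 0.229).

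Slc7a8, a light chain of a heteromeric transporter of large neutral amino acids, lies 2.82 Mb away. It had log2 signals of 8.92, 8.90, 9.01 and 8.99 in the samples labelled knockout, against 10.20, 10.09, 10.004 and 9.999 in those labelled wild type. The groups did not overlap, and the mean ratio was -1.12 ± 0.14 (2.17 fold lower, adjusted p 0.000298). Slc7a7, a light chain for cationic amino acids 2.46 Mb away, moved the other way, with ratios of 0.24, 0.24, 0.46 and 0.36 (mean 0.32 ± 0.11, adjusted p 0.0109). Of 7 tested genes for solute and lipid transport, these 2 were called and the other 5 did not pass.

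Zfhx2os is an RNA transcribed opposite the homeobox gene Zfhx2, 3.17 Mb away. Its signals were 7.11, 7.15, 7.41 and 7.52 in the samples labelled knockout, against 8.12, 8.08, 8.23 and 8.25 in those labelled wild type. The groups did not overlap, with a mean ratio of -0.87 ± 0.13 (adjusted p 0.000717). Zfhx2 itself had 2 tested probes, with mean ratios of -0.17 and 0.03, and neither was called. On the scanner software's processed signals, which have no offset added, Zfhx2os was at -1.30.

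Supt16 encodes the large subunit of FACT, the histone chaperone that opens nucleosomes ahead of polymerases, and lies 0.26 Mb from Ndrg2. Its signals were 8.35, 8.37, 8.24 and 8.44 in the samples labelled knockout, against 7.76, 7.65, 7.54 and 7.57 in those labelled wild type. It was the one member past 1.5 fold that rose, by a mean log2 ratio of 0.72 ± 0.11 (1.65 fold, adjusted p 0.000755). Among the promoters printed above, the windows of Supt16 and Slc7a8 each hold a GC box, and that of Myh7 holds none.

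**Figure D3:**
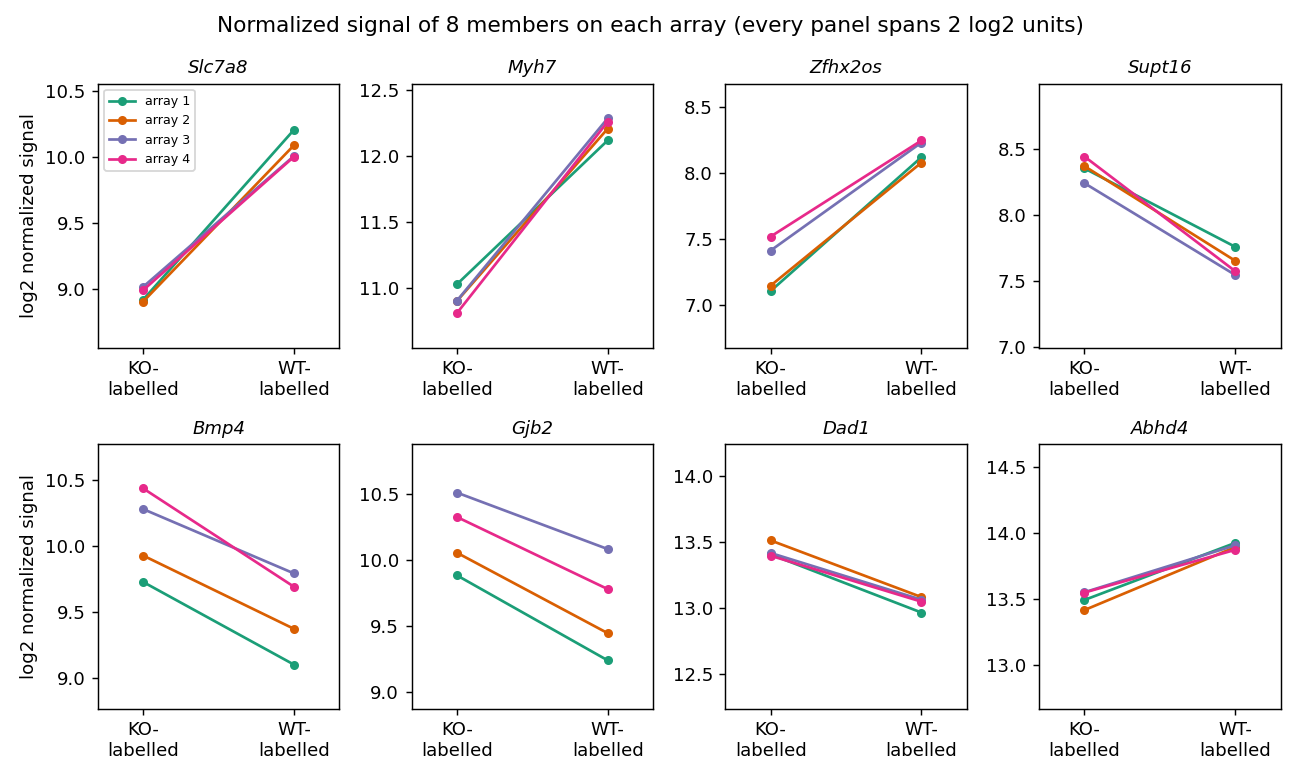
Normalized log2 signal on each of the 4 arrays for 8 members, samples labelled knockout on the left and samples labelled wild type on the right of each panel, joined within an array, each panel spanning 2 log2 units. Slc7a8, Myh7 and Zfhx2os are lower and Supt16 higher in every sample labelled knockout, with no overlap between the groups.

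The function lists below are read against the shares over all tested genes, of which 14.9% were called, 9.11% higher and 5.83% lower, and against the 30.1% called over the window. A small list gives a coarse share, and no list was tested. Among chromatin and transcription genes, 3 of 20 tested members rose, 2 fell and 15 did not pass (25.0% called). Besides Supt16, the rises were those of Parp4, a poly(ADP-ribose) polymerase of vault particles (0.30 ± 0.10, with its other probe at -0.05 and not called), and Nfatc4, a calcineurin-dependent transcription factor (0.23 ± 0.08, with an adjusted p of 0.0688 on processed signals). Chd8, a chromodomain remodelling enzyme 0.29 Mb from Ndrg2, and the homeobox gene Homez fell by 0.18 and 0.20 on the log2 scale. Both were above 0 under median centring. The other probe of Homez was at -0.01 and not called. The median over the list was -0.01.

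Of 12 members for RNA processing, methylation and translation, 3 rose and 2 fell (41.7% called). Acin1, a component of a splicing-associated complex, had ratios of -0.22, -0.46, -0.58 and -0.62 (mean -0.47 ± 0.18, adjusted p 0.00897), and without replicate 2 the mean was the same while the call was lost (adjusted p 0.0521). The other probe of Acin1 was at -0.15 and not called, and under median centring its brightest probe was at -0.05. Pabpn1, the nuclear poly(A)-binding protein, fell by 0.21, with a positive value under median centring. The 3 that rose were Tep1, a protein of telomerase and vaults, Ngdn, an eIF4E-binding protein, and Prmt5, an arginine methyltransferase, with means between 0.20 and 0.22. Hnrnpc and Mettl3, the catalytic subunit that writes m6A, had 0.05 and 0.11 and were not called.

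In DNA repair and replication, 1 of 5 rose and 1 fell (40.0% called). Parp2, a break-sensing poly(ADP-ribose) polymerase, had ratios of 0.18, 0.27, 0.28 and 0.37 (adjusted p 0.0123). Wdhd1, a replisome protein, had -0.24, -0.25, -0.13 and -0.23 (adjusted p 0.0201), and a mean of -0.35 on processed signals. Apex1, the main abasic site endonuclease, had a mean of 0.05 and was not called.

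Of 7 members for mitosis, centrosome and cilium, 3 rose and 1 fell (57.1% called). Haus4, a subunit of the augmin complex that seeds spindle microtubules, had ratios of 0.38, 0.43, 0.49 and 0.52, all above zero, and an adjusted p of 0.00143. Rpgrip1 rose too, as did Cdadc1, a gene named for its cytidine deaminase domain (0.17 ± 0.06, with its other probe at -0.05 and not called). Ttc5, which acts in tubulin mRNA decay, fell by 0.25 ± 0.06 on its brightest probe and was at 0.07 under median centring. Ift88, a carrier of intraflagellar transport, was not called. The list leaves out the centrosome gene Cenpj, a tested member with a mean of 0.04 that was not called (adjusted p 0.53). The share called therefore depends on which genes were listed.

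Of 8 mitochondrial members, none rose and 3 fell (37.5% called). Mrpl57 and Mrpl52 are proteins of the mitochondrial ribosome, and Mettl17, whose call was lost without each replicate as given above, acts in its assembly. Mrpl57 had ratios of -0.40, -0.33, -0.22 and -0.25, and Mrpl52 had -0.17, -0.19, -0.22 and -0.15. Both fell relative to loess-normalized arrays (adjusted p 0.00994 and 0.0235), and under median centring both were above 0, at 0.16 and 0.26, below or near the 0.28 of all genes. The list's median over all 8 was 0.03, the sign opposite to its called members. Oxa1l, the insertase of the inner membrane, was at 0.04 on its brightest probe.

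The 4 tested proteasome genes did not pass: Psmc6, Psmb5, Psme1 and Psme2 had mean ratios between -0.09 and 0.10. Of 9 genes for ubiquitin, NEDD8 and protein turnover, 1 rose and 1 fell (22.2% called). Cgrrf1, a RING finger protein, rose by 0.40 ± 0.06 (adjusted p 0.00251). Peli2, a Pellino ubiquitin ligase of innate immune signalling, had -0.43, -0.56, -0.38 and -0.27 and fell (adjusted p 0.00597). Nedd8, the ubiquitin-like modifier of cullins, was at 0.02.

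Of 18 genes of the secretory pathway and membrane traffic, 4 rose and 2 fell (33.3% called). Dad1, a subunit of oligosaccharyltransferase, Ap5m1, the medium chain of an endosomal adaptor complex, Exoc5, a subunit of the exocyst, and Atg14, which directs a lipid kinase to autophagosomes, rose by means of 0.20 to 0.39. Emc9, of the membrane protein insertion complex of the endoplasmic reticulum, had a mean of -0.26, and Tm9sf1 had -0.15. Both fell, and both were above 0 under median centring. Among metabolic enzymes 2 of 12 rose, the phospholipase Ddhd1 and the lipid droplet protein Cideb, and 1 fell, Abhd4 (25.0% called).

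Of 13 myosin, junction and cytoskeleton genes, 4 were called higher and 3 lower by their brightest probes (53.8% called). The higher ones were the connexin Gjb2, the exchange factor Spata13, Carmil3, a regulator of actin capping, and Arhgef40, whose probes disagree as described below. Besides Myh7, the integrin activator Fermt2 (other probe at 0.05, not called) and the actin regulator Gmfb fell, by 0.21 and 0.26 on the log2 scale, and both were above 0 under median centring. Of 8 neuronal and synaptic genes, Carmil3 rose and the other 7 did not pass (12.5% called), with a list median of -0.09.

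Of 10 secreted signals and receptors, 3 rose and none fell (30.0% called). Bmp4, a bone morphogenetic protein 5.52 Mb proximal, had log2 signals of 9.73, 9.93, 10.28 and 10.44 in the samples labelled knockout, against 9.10, 9.37, 9.79 and 9.69 in those labelled wild type. The groups overlapped, while the ratio within each array was above zero, at 0.63, 0.55, 0.49 and 0.74 (mean 0.60 ± 0.11, adjusted p 0.000973). With the channels as separate samples its adjusted p was 0.0841. Lgals3, the lectin galectin-3, had ratios of 0.23, 0.36, 0.25 and 0.39, a mean of 0.30. Its mean was 0.81 on processed signals, and the adjusted p was 0.056 without replicate 2 and 0.0675 with no replicate block. Tnfrsf19, a receptor of the TNF family, had 0.20, 0.16, 0.11 and 0.12, and its other probe was at -0.09 and not called.

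Of 6 genes for cell death and innate signalling, 3 rose and 1 fell (66.7% called), with Peli2 as the one that fell. The anti-apoptotic Bcl2l2 rose by 0.19 ± 0.08, together with Cideb and Nfatc4. Irf9, the DNA-binding part of the interferon-activated ISGF3 complex, varied in sign over the arrays, from -0.19 to 0.52, and was not called. Neither Cma2 nor Ctsg, the tested proteases of mast cells and neutrophils, was called (0.05 and 0.04). The function lists cover 132 of the 163 members, and 31 are in none.

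Several called members belong to no list or had limited signal. Ppp1r3e, a glycogen-targeting subunit of protein phosphatase, had ratios of -0.35, -0.37, -0.38 and -0.26. Its red signal was well above background on 2 of 4 arrays and its green signal on all 4, so it passed the filter only through the samples labelled wild type, in which it is higher, and its p is not given as support. On processed signals it was at -1.40. Dleu2, a noncoding host gene of microRNAs at the distal edge, had ratios of -0.33, -0.42, -0.43 and -0.10. Mapk1ip1l rose by 0.22 ± 0.06 on its brightest probe, with -0.06 and 0.02 on the other 2, which were not called. The gene 4931414P19Rik, which has no named role here, rose by 0.20 ± 0.06, was at 0.71 on processed signals and at -0.14 under median centring.

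**Figure D4:**
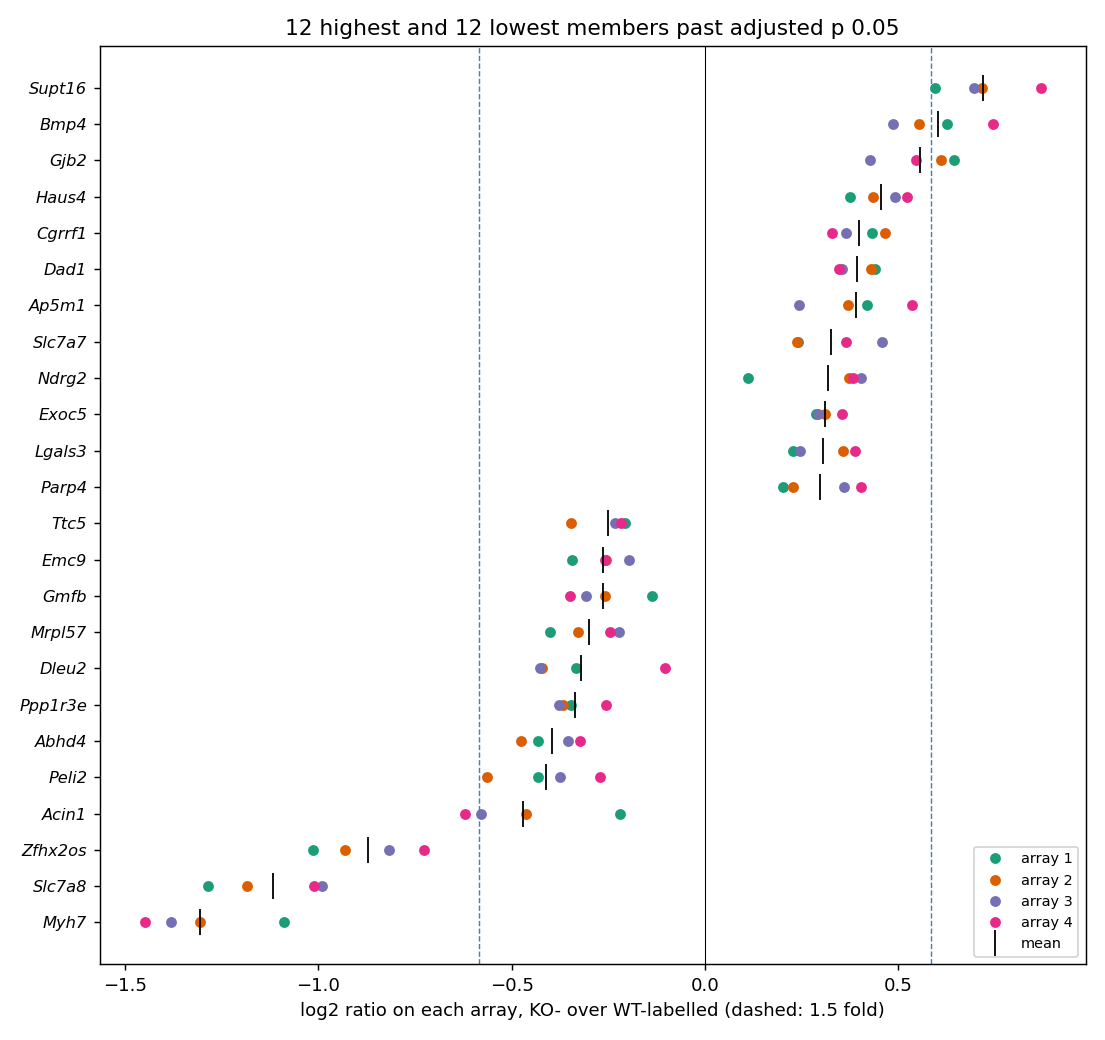
Log2 ratio on each of the 4 arrays for the 12 called members with the largest mean ratios in each direction, samples labelled knockout over samples labelled wild type, with the mean marked. The points of every member drawn lie on 1 side of zero, and Dleu2 and Acin1 spread most widely among those that fell by less than 0.5.

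The members Dad1 and Abhd4 start 200 bases apart on opposite strands and moved in opposite directions. Dad1 had log2 signals of 13.41, 13.51, 13.42 and 13.40 in the samples labelled knockout, against 12.96, 13.08, 13.06 and 13.05 in those labelled wild type. Abhd4, a lysophospholipase in the synthesis of N-acyl ethanolamines, had 13.50, 13.42, 13.55 and 13.55 in the samples labelled knockout, against 13.93, 13.90, 13.91 and 13.87 in those labelled wild type. Neither gene's groups overlapped. The mean ratios were 0.39 ± 0.05 for Dad1 (adjusted p 0.00221) and -0.40 ± 0.07 for Abhd4 (adjusted p 0.003), so the sizes were alike with the sign turned. Under median centring Abhd4 was at 0.06 and Dad1 at 0.83.

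The windows of Dad1 and Abhd4 share 299 bases, so the run of letters printed for Abhd4 serves both, with 1 GC box and the CCAATTGG between the starts. Pairs of members were counted where the genes are read away from each other, without overlap, from starts within 1000 bases. Of 8 such pairs, 4 had ratios of the same sign and 4 of opposite sign, and Dad1 and Abhd4 alone had both genes called. Exoc5 and Ap5m1 were left out of this count because they overlap at their starts. In Ska3 and Mrpl57, 76 bases apart, only Mrpl57 was called. In Wdhd1 and Socs4, 63 bases apart, only Wdhd1 was called.

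Exoc5 and Ap5m1, whose transcripts overlap at their starts, both rose. Exoc5 had ratios of 0.29, 0.31, 0.29 and 0.35 (adjusted p 0.00468) and Ap5m1 had 0.42, 0.37, 0.24 and 0.53 (adjusted p 0.00712). Both are on the proximal side, near 2.9 Mb, and every array was above zero for each. The Ap5m1 window has 2 GC boxes and 41 CpG dinucleotides, against none and 13 in the Exoc5 window.

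More than 1 tested probe was available for 44 members, and their probes did not always move together. The brightest and the next probe had the same sign in 24 of 44 (54.5%), against 62.1% of 4104 other genes. Among 14 of these members whose brightest probe was called, 8 had the same sign in the next (57.1%), against 70.4% of other such genes. Both probes were called in the same direction for Dad1 (0.39 and 0.18), Rpgrip1 (0.23 and 0.28) and Ttc5 (-0.25 and -0.39).

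Arhgef40 was called in opposite directions by its 2 probes, at 0.20 and -0.20. Its brightest probe counts it among the members called higher, and the other probe goes against that direction. Such opposite calls were seen in 1 of 44 members (2.27%) and 0.268% of other genes. In 5 members only a dimmer probe was called: Tox4 (-0.46), Kcnrg (0.59), Osgep (-0.24), Oxa1l (-0.19) and Psmb5 (-0.15). Tox4, a high mobility group box protein 0.37 Mb from Ndrg2, had ratios of -0.27, -0.24, 0.44 and 0.42 on its brightest probe and -0.51, -0.43, -0.49 and -0.43 on the other. Kcnrg, a potassium channel regulator, had 0.10, -0.13, 0.13 and 0.04 on its brightest and 0.57, 0.71, 0.64 and 0.44 on the other. No probe sequences were used here, so which transcripts these probes read was not tested.

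**Figure D5:**
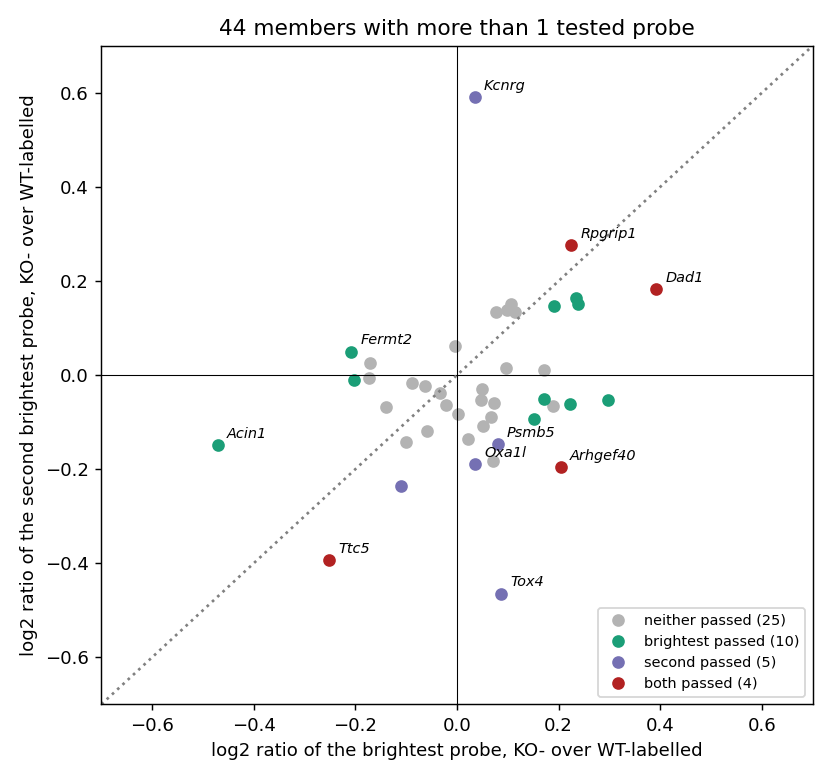
Mean log2 ratio of the brightest probe (horizontal axis) against the next tested probe (vertical axis) for the 44 members with more than 1 tested probe, samples labelled knockout over samples labelled wild type. Of the 44 points, 24 have 1 sign on both axes, and Tox4, Kcnrg and Arhgef40 lie away from the diagonal.

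Members known as markers of cell types were set beside the other markers of that type, and 9.11% of all tested genes rose. In bulk tissue, a change in the number of cells of a type and a change in RNA per cell cannot be told apart. Gjb2, a connexin of the meninges, had log2 signals of 9.88, 10.05, 10.51 and 10.32 in the samples labelled knockout, against 9.24, 9.44, 10.08 and 9.78 in those labelled wild type. The groups overlapped, but within each array the sample labelled knockout was higher, by 0.64, 0.61, 0.43 and 0.55 (mean 0.56 ± 0.10, adjusted p 0.00104, or 0.114 with no replicate block). All 8 genes of the meningeal list, Gjb2 among them, rose, with a median of 0.50 and medians by array of 0.63, 0.46, 0.26 and 0.64. The summed signal of the list's other 7 genes ran from 157300 to 175000 in the samples labelled knockout, against 107900 to 141900 in those labelled wild type, and none of the 8 was below background. These 7 genes are not among the members, and their part in the result for Gjb2 was not tested.

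Gjb6, an astrocyte connexin gene close to Gjb2, had ratios of -0.01, 0.08, 0.27 and 0.30 and was not called. Of the 10 astrocyte markers 1 rose and 9 did not pass. The median of that list was 0.17, against 0.01 over all genes, with medians by array of 0.12, 0.09, 0.16 and 0.15. Slc7a7, the cationic amino acid transporter subunit, is also a microglial gene, and 3 of the 9 microglial markers rose (itself, Cx3cr1 and Tmem119). Bmp4, also a gene of committed oligodendrocyte precursors, was the one of 5 precursor markers that rose, and Pdgfra, Cspg4, Olig1 and Olig2 had means between 0.04 and 0.12. Cmtm5, an oligodendrocyte gene, had a mean of 0.11 and was not called, where 1 of 9 oligodendrocyte markers rose. Cpne6, a calcium-binding neuronal gene, was at -0.05, and 2 of 8 neuronal markers rose. Endothelial markers rose in 1 of 6, and the blood genes Hbb-bs, Hba-a1 and Alas2 did not pass, while the mast cell and cytotoxic genes Cma1, Mcpt4 and Gzmb were not above background.

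The genes at the edges of the window were also read. Just inside it at the proximal edge, the eosinophil ribonucleases Ear10 and Ear2 had mean ratios of 0.08 and 0.18, and neither was called. Ear2 was well above background in red on 4 arrays and in green on 1. It passed the filter only through the samples labelled knockout, in which it is higher. Just inside the distal edge, Dleu2, which was called, had -0.32, and the brightest probe of Kcnrg, which was not, had 0.03. Just outside, Dydc2 and Sftpd had -0.13 and 0.06, and Dleu7 and Gucy1b2 had 0.02 and -0.02.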

How the data were processed

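Dual-colour arrays measured cortical RNA in 4 pairs of samples. Per the file headers, Feature Extraction 11.0.1.1 (10.7.3.1 per the submitters' processing notes) gave each spot a raw intensity, the median pixel signal of each channel, with its local background. Per the file headers, it also gave background-subtracted, dye-normalized processed signals and their red-to-green ratio as a log10 value. The authors deposited log2 values, which equalled the log2 ratio of processed signals over the window and served, like these, as an alternative. All arrays were on 1 slide in 1 scan, per the file headers, so there was no batch to compare.

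Raw intensities were analysed in R 4.3.3 (limma 3.58.1, with data.table at version 1.17.8): normexp background correction (offset 50, which shrinks the ratios of dim probes), loess with 1377 control spots at weight 0, 802 outlier spots over the 4 arrays left out, and replicate spots averaged. Channel levels were scaled between arrays by Aquantile. Kept were 27682 of 39429 probes. An intercept-only limma model (residual df 3, prior df 4.46) was fitted to all of them, with Benjamini-Hochberg adjustment and calls under 0.05; the ratio on an array pairs equally numbered samples, which builds the replicate block into the fit. The number of arrays limits the precision. The code was tested on simulated data with known changes.

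Accessions were matched to RefSeq GRCm38.p6 genes (27427 probes with a symbol, 20782 of them kept). The array's annotation uses mm9, so distances and gene order come from GRCm38.p6 alone. The members, the 15 function lists and the 8 cell type lists were chosen with earlier results of these data known. Values per array were examined for Ndrg2, the 5 nearest tested genes on each side, all called members, those past 1.5 fold, up to 3 called genes of each list (otherwise its 2 largest), members in a cell type list and the genes at the limit. Alternatives were processed and deposited ratios, median centring, no background correction, both channels above background, no filter, no replicate block, every probe, 5 Mb in place of 10 Mb, and each replicate left out.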

Additional observations from a re-analysis of the deposited data

Results flagged for a closer look

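Of 66 members examined, 2 had an array far from the other 3 by Dixon's test, which chance gives in about 1 of 20 groups. Ndrg2 had a log2 ratio of 0.11 on array 1, against 0.37, 0.40 and 0.38 on the others. Wdhd1 had -0.13 on array 3, against -0.24, -0.25 and -0.23. For both genes the sample labelled knockout differed from the sample labelled wild type in the same direction on all 4 arrays.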

How the results depend on the processing

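Without each replicate in turn, 15 to 39 members were called (9 to 22 higher, 6 to 17 lower), 4 in each case passed 1.5 fold on all remaining arrays, and the Ndrg2 ratio was 0.29 to 0.39. With no replicate block, the channels as separate samples, 25 members were called (12 higher, 13 lower) and Ndrg2, at 0.32, had an adjusted p of 0.0602. Processed signals and the deposited ratios, which are the same values, called 42 members, kept the sign of all 49 and put Ndrg2 at 0.26 (adjusted p 0.0662). No background correction, no filter on dim probes and the filter on both channels called 55, 47 and 49 members. In these and in the settings above, no called member turned sign, and 4 not called did in at least 1 setting (Ctsg, Zfp219, Gm5622 and Gm5800). Counting every probe gave 58 calls. Median centring without loess moved the median of all genes to 0.28 and called 137 members (106 higher, 31 lower), with 12 past 1.5 fold. The same setting put Ndrg2 at 0.85. It turned 19 signs: Abhd4 to 0.061, Ttc5 to 0.067, Homez to 0.12, Emc9 to 0.14, Fermt2 to 0.15, Mrpl57 to 0.16, Tm9sf1 to 0.17, Gmfb to 0.18, Chd8 to 0.24, Mrpl52 to 0.26, Pabpn1 to 0.28, Psme2 to 0.33 and Cpne6 to 0.43, and Slc39a2 to -0.017, 4931414P19Rik to -0.14, Ear10 to -0.26, Ear2 to -0.27, Ctsg to -0.36 and Gm5800 to -0.38. The cause was not tested. Called with each replicate left out, on processed signals and with no replicate block were 13 members; Ppp1r3e, one of them, was not tested under the filter on both channels. Signal close to background limits the ratios of dim probes such as Ppp1r3e.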
